A study of Mus musculus with 12 samples.

Results

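Iron handling and ferroptosis genes were examined as a set of 10 named members, Tfrc, Slc40a1, Fth1, Ftl1, Ncoa4, Hmox1, Slc7a11, Gpx4, Aifm2 and Acsl4, out of 53465 genes in the count table. They were chosen by name and not by a measured value. All 10 were present in the table, and 9 had enough reads to be tested. The exception was Slc7a11.

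RNA-seq was performed on hearts of 4 groups of 3 mice on a C57BL/6J background. All mice carried floxed Adam17 alleles, Adam17 being the gene for a membrane metalloproteinase that sheds cell surface proteins such as TNFα. A17fl/fl mice carried the floxed alleles alone, and A17α-MHCKO littermates also carried Cre driven by the cardiac α-MHC promoter, so that Adam17 was deleted in cardiomyocytes only. Mice of each genotype received normal saline (NS) or the anthracycline doxorubicin (DOX), the latter as intraperitoneal doses of 5 mg/kg up to a cumulative 20 mg/kg. Tissue was collected 4 weeks after the last injection. The mice were male and 8 weeks old at the outset. The tissue is labelled heart and is the left ventricle in the study's methods. The RNA came from whole tissue, in which fewer cells of a type and less RNA per cell cannot be told apart.

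Free iron is useful and dangerous to a cell, because ferrous iron turns peroxides into radicals. Transferrin receptor brings iron in, ferritin stores it, ferroportin lets it out, and heme oxygenase releases it from heme. Iron regulatory proteins hold this system in balance by binding hairpins in messenger RNAs: a hairpin in the 5′ untranslated region blocks translation when iron is scarce, whereas hairpins in the 3′ untranslated region protect the transferrin receptor message from decay. Ferroptosis is a form of cell death that follows when iron-driven peroxidation of membrane lipids outruns its repair, and anthracycline injury of the heart is among the settings in which it has been described.

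The iron-responsive hairpins of the members are shown here as background on the uptake, storage and export genes described below. Their part in the mRNA levels was not tested. Annotated untranslated regions of the mouse genome (GRCm38, GENCODE M21) were searched for an unpaired C, 5 paired bases, the loop CAGTGN and the 5 bases that close the stem, with G-T pairs allowed. Each site is given 5′ to 3′ on the transcript strand in DNA letters, and capitals mark the loop. The single matches of Fth1, Ftl1 and Slc40a1 lay in 5′ untranslated regions, and the 4 matches of Tfrc lay in its 3′ untranslated region.
Fth1, chr19:9982732-9982761, plus strand: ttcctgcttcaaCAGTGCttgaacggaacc
Ftl1, chr7:45459778-45459807, minus strand: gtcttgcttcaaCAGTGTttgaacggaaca
Slc40a1, chr1:45925464-45925493, minus strand: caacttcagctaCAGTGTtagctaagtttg
Tfrc, chr16:32631219-32631248, plus strand: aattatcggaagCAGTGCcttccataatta
Tfrc, chr16:32631598-32631627, plus strand: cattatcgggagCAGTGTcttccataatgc
Tfrc, chr16:32631663-32631692, plus strand: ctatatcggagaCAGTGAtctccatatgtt
Tfrc, chr16:32631710-32631739, plus strand: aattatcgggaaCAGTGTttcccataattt

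Such matches were scarce in the annotation. They were found in the 5′ untranslated regions of 31 of 20597 protein-coding genes (0.151%) and in the 3′ untranslated regions of 129 of 20995 (0.614%). The other 6 members, Hmox1, Ncoa4, Slc7a11, Gpx4, Aifm2 and Acsl4, held no match in either region. A match is a description of the letters and not evidence of binding.

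Libraries held 15950717 to 21725076 counted reads, with a median of 16413855. Adam17 lay at 43.6 to 70.9 CPM (counts scaled to library size) in the 6 A17fl/fl libraries and at 27.9 to 36.8 CPM in the 6 A17α-MHCKO libraries, with no overlap. The 7 cardiomyocyte marker genes summed to 21936 to 32098 CPM in 11 libraries and to 12780 CPM in A17fl/fl + NS replicate 1. That library also stood apart by its 6 neutrophil markers, which summed to 2218 CPM against 5.21 to 65.5 CPM elsewhere. Its 10 macrophage markers summed to 1398 CPM against 553 to 747 CPM, and its 7 red cell markers to 3623 CPM against 518 to 1935 CPM. Atrial markers were near 0 in A17fl/fl + NS replicates 1 and 3 (1.56 and 1.75 CPM) and reached 326 to 3071 CPM in the other 10. Results that rest on A17fl/fl + NS replicate 1 are therefore given with and without it, and the part of these other cells in them was not tested. The A17α-MHCKO groups also differed. Their cardiomyocyte markers summed to 21936 to 27877 CPM after NS and 27961 to 28649 CPM after DOX. Their atrial markers summed to 1254 to 2337 CPM after NS and 326 to 918 CPM after DOX. The part of this difference in the doxorubicin results of A17α-MHCKO was not tested.

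Levels of different genes were compared per length, in FPKM, by their median over the 12 mice. Fth1, the ferritin heavy chain, was the most abundant member at 2022 FPKM (range 1753 to 6741). Ftl1, the ferritin light chain, followed at 68.1 FPKM and Gpx4 at 59.6 FPKM, and the ranges of these 2 overlapped. Hmox1 (7.04 FPKM), Aifm2 (5.77 FPKM) and Tfrc (5.70 FPKM) came next with overlapping ranges, and then Acsl4 (2.79 FPKM), Ncoa4 (1.58 FPKM) and Slc40a1 (1.53 FPKM). Slc7a11 was close to absent, with a median of 0.00399 FPKM.

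**Figure D1:**
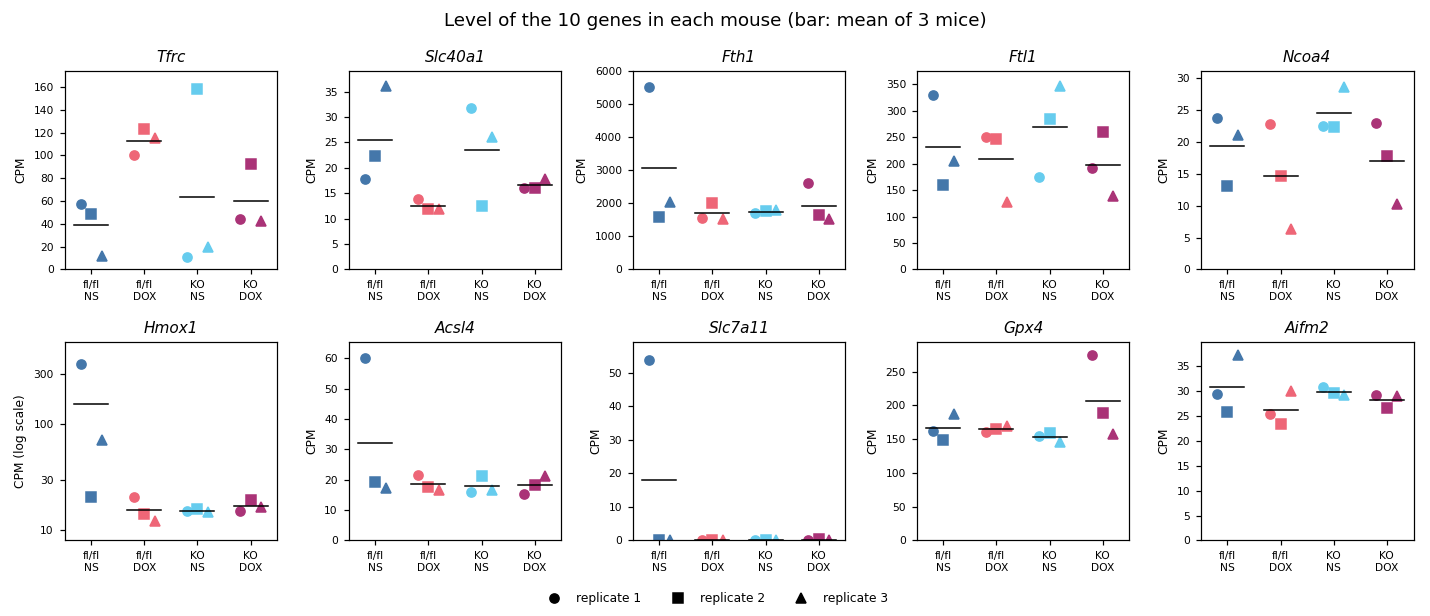
Levels of the 10 genes in CPM (vertical axes, linear except the log axis for Hmox1) in the 4 groups (horizontal axes), where each point is a mouse, its shape gives the replicate number and the bar is the mean of 3. A17fl/fl + NS replicate 1 is the highest point for Hmox1 (369.8 CPM), Slc7a11 (53.7 CPM), Acsl4 (60.1 CPM) and Fth1 (5529 CPM), whereas Tfrc is widely spread within both saline groups.

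Tfrc (ENSMUSG00000022797, chr16:32608920-32632794 in GRCm38) encodes transferrin receptor 1, the route by which most cells take up transferrin-bound iron. In A17fl/fl its level was 57.8, 48.8 and 11.5 CPM after NS and 100.1, 122.9 and 114.8 CPM after DOX. It was 11.2, 158.4 and 20.1 CPM in A17α-MHCKO + NS and 44.3, 92.4 and 42.7 CPM in A17α-MHCKO + DOX. The lowest and the highest level of the series thus both came from A17α-MHCKO + NS, and the A17fl/fl + DOX mice were close to each other.

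Tfrc was higher in every A17fl/fl + DOX mouse than in any A17fl/fl + NS mouse, but the fitted log2 fold change of 1.52 (SE 0.85) had an unadjusted p of 0.1 and an adjusted p of 0.537 in edgeR's quasi-likelihood test. All A17α-MHCKO + DOX mice lay below all A17fl/fl + DOX mice, at a log2 fold change of −0.91 (SE 0.83, unadjusted p = 0.296, adjusted p = 1). Between the A17α-MHCKO groups the log2 fold change was −0.08 (unadjusted p = 0.92). The SD of log2 CPM within groups was 1.21 for Tfrc, larger than in 98.9% of the genes tested, and 1.24 without A17fl/fl + NS replicate 1. A17α-MHCKO + NS replicate 2, the mouse at 158.4 CPM, decided several of these values. Without it, Tfrc passed the study's limits, set out under Slc40a1, for doxorubicin in A17fl/fl (log2 fold change 1.53, SE 0.52, unadjusted p = 0.0138, adjusted p = 0.435) and in A17α-MHCKO (1.92, SE 0.61, unadjusted p = 0.0102, adjusted p = 0.721). The averaged effects then passed too, at 1.73 for doxorubicin (unadjusted p = 0.00146, adjusted p = 0.237) and −1.11 for genotype (unadjusted p = 0.0171, adjusted p = 0.82).

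Slc40a1 (ENSMUSG00000025993, chr1:45908068-45926523) encodes ferroportin, the known cellular iron exporter. It reached 17.9, 22.3 and 36.0 CPM in A17fl/fl + NS and 13.8, 11.9 and 11.9 CPM in A17fl/fl + DOX, without overlap. The A17α-MHCKO + NS mice were at 31.8, 12.5 and 26.0 CPM and the A17α-MHCKO + DOX mice at 15.99, 16.05 and 17.73 CPM. The latter 3 lay above all A17fl/fl + DOX mice and within the range of A17α-MHCKO + NS.

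Slc40a1 was lower after doxorubicin in A17fl/fl by the study's limits, which asked for a log2 fold change beyond 1 in either direction together with an unadjusted p below 0.05 and a mean above 1 FPKM in a compared group. The log2 fold change was −1.02 (SE 0.32, unadjusted p = 0.00847) and the adjusted p was 0.366. It was −1.22 (SE 0.32, unadjusted p = 0.00254, adjusted p = 0.281) without A17fl/fl + NS replicate 1. The call ended on the fold limit without A17fl/fl + NS replicate 3 (log2 fold change −0.68, unadjusted p = 0.0495), without A17fl/fl + DOX replicate 2 (−0.98) or without A17fl/fl + DOX replicate 3 (−0.97). It also ended with upper-quartile scaling (−0.98, unadjusted p = 0.0112). In A17α-MHCKO the log2 fold change was −0.50 (unadjusted p = 0.145), and averaged over the genotypes it was −0.76 (SE 0.22, unadjusted p = 0.00608, adjusted p = 0.321). A17α-MHCKO + DOX differed from A17fl/fl + DOX by 0.40 (SE 0.32, unadjusted p = 0.232, adjusted p = 1).

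The mRNA levels of the uptake gene Tfrc and the export gene Slc40a1 moved in opposite directions from mouse to mouse. Of the 36 pairs among the 9 tested members, Tfrc and Slc40a1 had the strongest correlation across the 12 mice, with Pearson's r of −0.96 for log2 CPM (permutation p = 2e-05, adjusted over the 36 pairs 0.00072). Spearman's rho was −0.888 (permutation p = 3e-04, adjusted p = 0.0108). These pairs were examined after the levels had been seen. The 3 mice with the lowest Tfrc (11.2, 11.5 and 20.1 CPM) had the highest Slc40a1 (31.8, 36.0 and 26.0 CPM), and all 3 had received saline.

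The relation remained when 2 mice with low Tfrc were left out and when group means were subtracted. It was −0.907 without the 2 mice farthest from the median of Tfrc, A17α-MHCKO + NS replicate 1 and A17fl/fl + NS replicate 3, and −0.963 after group means had been subtracted (permutation within groups, p = 0.0036). With each library left out in turn it ranged from −0.972 to −0.946, and without A17fl/fl + NS replicate 1 it was −0.96. The 2 mice left out together were the lowest in Tfrc, while A17α-MHCKO + NS replicates 2 and 3 (158.4 and 20.1 CPM) stayed in. Slc40a1 varied more within the saline groups (SD 9.45 and 9.91 CPM) than within the DOX groups (1.06 and 0.988 CPM). The value with group means subtracted may therefore draw mainly on the saline mice. Whether the relation rests on a few saline mice was not tested. In A17fl/fl + DOX, Tfrc of 100.1, 122.9 and 114.8 CPM went with Slc40a1 of 13.8, 11.9 and 11.9 CPM. In A17α-MHCKO + DOX, Tfrc of 44.3, 92.4 and 42.7 CPM went with 15.99, 16.05 and 17.73 CPM. The relation within the DOX groups alone was not tested. Among all tested genes, Slc40a1 had the lowest correlation with Tfrc and Tfrc the lowest with Slc40a1. Genes outside the members came close, as Eif4b reached −0.939 and Trmt1 −0.924 with Tfrc. Without A17fl/fl + NS replicate 1, Serinc3 reached −0.957 with Tfrc, beside −0.96 for Slc40a1. The summed levels of the cell type markers correlated with Tfrc between −0.552, for skeletal muscle, and 0.426, for monocytes, and with Slc40a1 between −0.485 and 0.471, which is given as a description over the same 12 libraries. Of the 36 pairs, 2 had an adjusted Pearson p under 0.05, and the other was Ftl1 with Ncoa4. Tfrc with Fth1 gave r = −0.0516 (permutation p = 0.882).

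**Figure D2:**
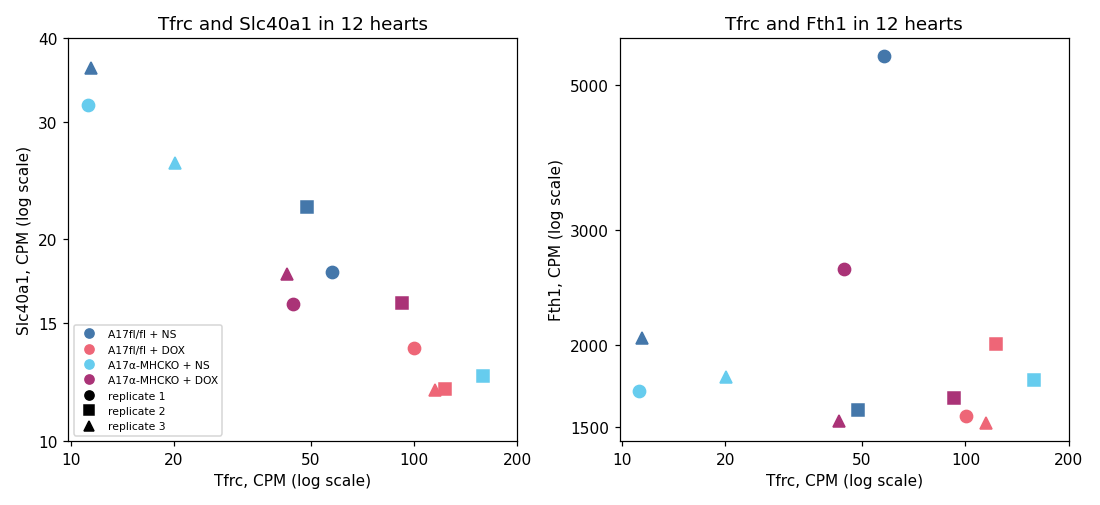
Tfrc in CPM (horizontal axes, log scale) against Slc40a1 and against Fth1 in CPM (vertical axes, log scale), where each point is a mouse and colour and shape give its group. Over the 12 mice, Slc40a1 falls from 36.0 to 11.9 CPM as Tfrc rises from 11.2 to 158.4 CPM (r = −0.96). Fth1 shows no such relation (r = −0.0516).

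The genes most similar to each were also sought, as a description over the 12 libraries. The highest correlations of log2 CPM with Tfrc belonged to Arhgef7 (r = 0.904), Kcnq1 (0.902) and Amigo3 (0.891). With A17fl/fl + NS replicate 1 left out, Gas7 (0.944) and Phyhip (0.936) were among the 3 highest. Slc40a1 was most similar to Bclaf1 (0.945), Serinc1 (0.928) and Alkal2 (0.915). Without that library, Pitrm1 (0.973) and Bclaf1 (0.966) correlated with Slc40a1 more strongly than Tfrc did (−0.96). Over all 12 libraries, the lowest correlations of Slc40a1 after Tfrc were with Spsb4 (−0.906) and Alas1 (−0.892). Alas1 encodes the rate-limiting enzyme of heme synthesis.

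Fth1 and Ftl1 form the ferritin shell, in which the heavy chain oxidizes ferrous iron for storage. Fth1 was at 5529, 1595 and 2052 CPM in A17fl/fl + NS and at 1560, 2011 and 1525 CPM in A17fl/fl + DOX. It was at 1702, 1769 and 1793 CPM in A17α-MHCKO + NS and at 2614, 1660 and 1534 CPM in A17α-MHCKO + DOX. Apart from A17fl/fl + NS replicate 1, at 2.12 times the next library, levels spanned 1.71-fold, and the groups overlapped in all comparisons. The log2 fold change for doxorubicin in A17fl/fl was −0.85 (unadjusted p = 0.0536) and became −0.11 without that library.

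Ftl1 lay between 128 and 347 CPM, with all 4 groups overlapping. Its row is uncertain, because the processed pseudogene Ftl1-ps1 had counts of its own (57.7 to 526 CPM) and 73.4% of the 50-base runs of the longest Ftl1 transcript also occur in an Ftl1-ps1 transcript. With the 2 rows summed, the log2 fold change between the genotypes after doxorubicin changed from −0.08 to 0.17.

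Ncoa4 encodes the cargo receptor that carries ferritin to lysosomes, where its iron is released. It ranged from 6.40 CPM in A17fl/fl + DOX replicate 3 to 28.6 CPM in A17α-MHCKO + NS replicate 3, and no unadjusted p fell under 0.05. Across the 12 mice Ncoa4 correlated with Ftl1, with Pearson's r of 0.776 (permutation p = 0.00215, adjusted p = 0.0387) and Spearman's rho of 0.734 (permutation p = 0.00866, adjusted p = 0.156). The r was 0.519 without A17fl/fl + DOX replicate 3 and A17α-MHCKO + DOX replicate 3, the 2 mice farthest from the median.

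The log2 ratio of Tfrc to Fth1 CPM gave a single value per mouse for the mRNA of an uptake gene against that of a storage gene. Iron uptake and storage were not measured. It was −6.57, −5.02 and −7.42 in A17fl/fl + NS and −3.96, −4.03 and −3.73 in A17fl/fl + DOX. It was −7.18, −3.48 and −6.44 in A17α-MHCKO + NS and −5.87, −4.16 and −5.15 in A17α-MHCKO + DOX. The A17fl/fl + DOX mice were thus above both the A17fl/fl + NS and the A17α-MHCKO + DOX mice without overlap, and A17α-MHCKO + NS spanned nearly the whole range.

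The mean ratio was −6.34 ± 1.22 (SD, n = 3) in A17fl/fl + NS, −3.90 ± 0.157 in A17fl/fl + DOX, −5.70 ± 1.96 in A17α-MHCKO + NS and −5.06 ± 0.857 in A17α-MHCKO + DOX. Doxorubicin gave a difference of 2.43 in A17fl/fl (exact permutation test, two-sided, p = 0.1, adjusted over 6 comparisons 0.2) and of 0.64 in A17α-MHCKO (exact p = 0.7, adjusted p = 0.762). The genotypes differed by −1.16 after doxorubicin (exact p = 0.1, adjusted p = 0.2) and by 0.64 after saline (exact p = 0.6, adjusted p = 0.762). With 3 mice against 3 the smallest possible p is 0.1, so none of these could pass. Over 6 against 6 mice, doxorubicin gave 1.54 (exact p = 0.0584, adjusted p = 0.2) and genotype −0.26 (exact p = 0.762).

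Hmox1 (ENSMUSG00000005413, chr8:75093621-75100589) encodes heme oxygenase 1, the inducible enzyme that opens heme and frees its iron. It was at 369.8, 20.4 and 70.2 CPM in A17fl/fl + NS and at 20.5, 14.2 and 12.2 CPM in A17fl/fl + DOX. It was at 15.1, 15.7 and 14.7 CPM in A17α-MHCKO + NS and at 15.2, 19.3 and 16.5 CPM in A17α-MHCKO + DOX. High levels were thus limited to 2 of the 3 A17fl/fl + NS mice, and the 9 mice of the other groups lay between 12.2 and 20.5 CPM.

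By the study's limits Hmox1 was lower after doxorubicin in A17fl/fl, at a log2 fold change of −3.30 (SE 0.78, unadjusted p = 0.0013, adjusted p = 0.324), although A17fl/fl + NS replicate 2 and A17fl/fl + DOX replicate 1 overlapped. After saline it was lower in A17α-MHCKO than in A17fl/fl without overlap (−3.34, SE 0.78, unadjusted p = 0.00119, adjusted p = 0.244). The doxorubicin effect differed between the genotypes by 3.46 (SE 1.04, unadjusted p = 0.0067, adjusted p = 0.828). Averaged over genotypes the doxorubicin effect was −1.57 (SE 0.52, unadjusted p = 0.0115, adjusted p = 0.365), and averaged over treatments the genotype effect was −1.61 (SE 0.52, unadjusted p = 0.01, adjusted p = 0.736). These comparisons share the A17fl/fl + NS mice and are not independent of each other.

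A17fl/fl + NS replicate 1, the library rich in neutrophil and macrophage markers, set the size of these values. Without it, the Hmox1 log2 fold change was −1.54 for doxorubicin in A17fl/fl (SE 0.39, unadjusted p = 0.00197, adjusted p = 0.26), −1.58 for genotype after saline (unadjusted p = 0.00163, adjusted p = 0.181) and 1.70 for the difference of effects (SE 0.52, unadjusted p = 0.00757, adjusted p = 0.531). All 3 remained within the study's limits, with 2 A17fl/fl + NS mice left, at 20.4 and 70.2 CPM. The first of these lay within the range of A17fl/fl + DOX (12.2 to 20.5 CPM). The averaged effects became −0.69 (unadjusted p = 0.0229) and −0.73 (unadjusted p = 0.0175) and lost their calls on the fold limit. The genes most similar to Hmox1 changed as well, from Skap2 (r = 0.985), C130026I21Rik (0.984) and Rela (0.971) to Mapre3 (0.952), Cdh4 (0.946) and Gm44751 (0.945).

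Slc7a11 encodes the cystine carrier of system xc-, which supplies cysteine for glutathione. A17fl/fl + NS replicate 1 had 931 counts (53.7 CPM), whereas each of the other 11 libraries had 0 to 6 counts. It did not pass the filter on low counts and is therefore described and not tested. That library was the one with 2218 CPM of neutrophil markers.

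Gpx4 encodes glutathione peroxidase 4, which reduces lipid hydroperoxides within membranes. It was at 162, 148 and 187 CPM in A17fl/fl + NS and at 161, 165 and 169 CPM in A17fl/fl + DOX. It was at 154, 158 and 146 CPM in A17α-MHCKO + NS and at 274, 188 and 157 CPM in A17α-MHCKO + DOX, the last of which overlapped its saline group. The log2 fold change for doxorubicin in A17α-MHCKO was 0.43 (SE 0.18, unadjusted p = 0.0378, adjusted p = 0.767) and fell short of the fold limit. Without A17α-MHCKO + DOX replicate 1, the mouse at 274 CPM, it was 0.18 (unadjusted p = 0.234).

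Aifm2 encodes ferroptosis suppressor protein 1, which regenerates radical-trapping coenzyme Q. It was the steadiest member, between 23.4 and 37.3 CPM, and its SD within groups of 0.166 on the log2 scale exceeded that of 16% of the genes tested. In A17α-MHCKO the DOX mice (29.1, 26.5 and 29.0 CPM) lay just below the NS mice (30.9, 29.6 and 29.2 CPM) without overlap, at a log2 fold change of −0.08 (SE 0.15, unadjusted p = 0.595, adjusted p = 0.946).

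Acsl4 encodes the acyl-CoA synthetase that prepares polyunsaturated fatty acids for membrane lipids and so sets their supply for peroxidation. A17fl/fl + NS replicate 1 had 60.1 CPM, whereas the other 11 libraries lay at 15.2 to 21.6 CPM. Doxorubicin gave a log2 fold change of −0.80 in A17fl/fl (unadjusted p = 0.0675), which was 0.02 without that library.

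**Figure D3:**
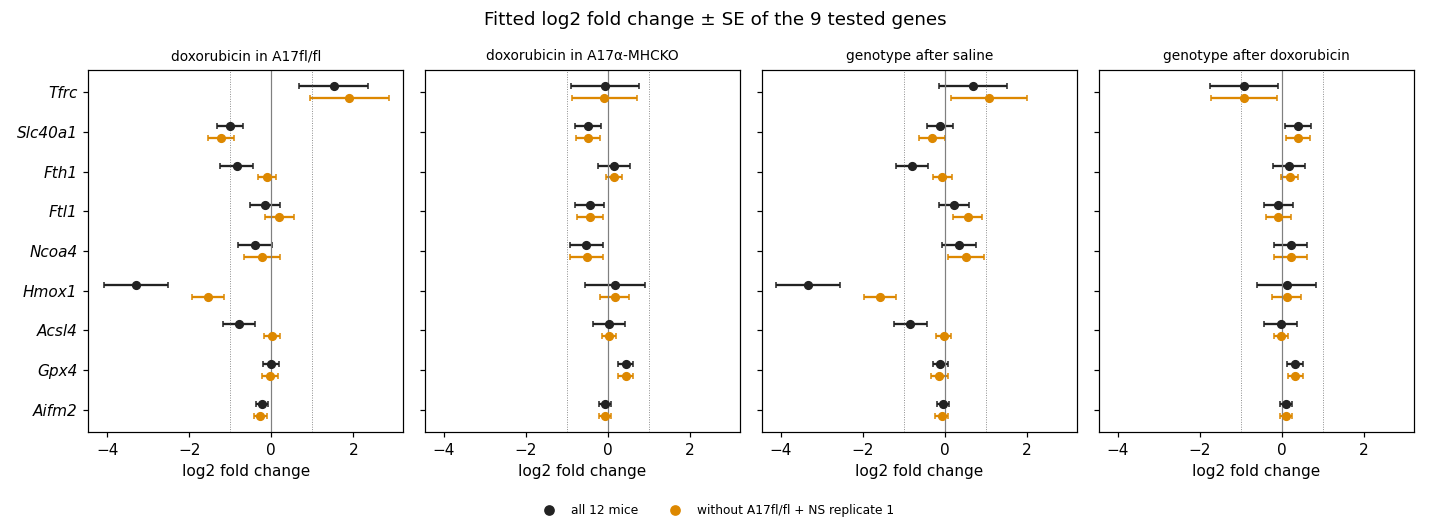
Fitted log2 fold changes (horizontal axes) with their standard errors (bars) of the 9 tested genes (vertical axes) in the 4 comparisons of 2 groups, with all 12 mice in black and without A17fl/fl + NS replicate 1 in orange; dotted lines mark −1 and 1. Hmox1 moves from −3.30 to −1.54 for doxorubicin in A17fl/fl, Fth1 and Acsl4 move to near 0 (−0.11 and 0.02), and Slc40a1 stays negative (−1.02 and −1.22).

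For doxorubicin in A17fl/fl, 2 of the 9 tested members, Hmox1 and Slc40a1, passed the study's limits, both lower after doxorubicin. This stands beside 3.86% of the genes that met the FPKM limit. The same 2 had an unadjusted p under 0.05, beside 10.7% of all genes, and none had an adjusted p under 0.05, beside 0% of all genes. The groups did not overlap for Slc40a1 and Tfrc, beside 13.3% of all genes. The median log2 fold change of the members was −0.40 and that of all genes tested was −0.04, and these were −0.11 and −0.01 without A17fl/fl + NS replicate 1.

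For doxorubicin in A17α-MHCKO, no member passed the study's limits (0.915% of genes that met the FPKM limit), whereas Tfrc did without A17α-MHCKO + NS replicate 2. Only Gpx4 had an unadjusted p under 0.05 (6.42% of all genes), none had an adjusted p under 0.05 (0% of all genes), and only Aifm2 did not overlap (16.9% of all genes). The median log2 fold change was −0.08 for the members and 0.00 for all genes.

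After saline, 1 member, Hmox1, was lower in A17α-MHCKO than in A17fl/fl by the study's limits (4.07% of genes that met the FPKM limit). It was also the only member with an unadjusted p under 0.05 (10.1% of all genes) and the only one without overlap (10.9% of all genes), and no member passed at an adjusted p under 0.05 (0.0186% of all genes). After doxorubicin, no member passed the study's limits (0.288% of genes that met the FPKM limit). None passed an unadjusted p of 0.05 (2.7% of all genes) or an adjusted p of 0.05 (0.00621% of all genes). Tfrc, lower in A17α-MHCKO, and Slc40a1, higher, did not overlap there (14.1% of all genes). The A17fl/fl + DOX mice in that comparison are the same as those compared with saline.

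Hmox1 alone passed the study's limits in the difference between the doxorubicin effects of the genotypes (2.86% of genes that met the FPKM limit). Of all genes, 5.99% had an unadjusted p under 0.05 there and 0% an adjusted p under 0.05. Averaged over genotypes, Hmox1 alone passed for doxorubicin (1.09% of genes that met the FPKM limit). Hmox1 and Slc40a1 had an unadjusted p under 0.05 (10.7% of all genes). No member passed at an adjusted p (0% of all genes), and no member separated all 6 DOX from all 6 NS mice (1.16% of all genes). Averaged over treatments, Hmox1 alone passed for genotype (1.17% of genes that met the FPKM limit). Of all genes, 6.65% had an unadjusted p under 0.05 there. No member had an adjusted p under 0.05 there (0.0248% of all genes) or separated the 6 mice of each genotype (0.335% of all genes).

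The wider pathway was followed in 10 lists with 134 genes, the members included, of which 125 were tested. For doxorubicin in A17fl/fl, 5 had a higher and 19 a lower level at an unadjusted p under 0.05 (19.2%, beside 10.7% of all genes). In A17α-MHCKO these numbers were 11 and 4 (12%, beside 6.42%). After saline 3 genes were higher and 17 lower in A17α-MHCKO than in A17fl/fl (16%, beside 10.1%), whereas after doxorubicin 1 gene, Uros, was lower (0.8%, beside 2.7%). No gene of the lists had an adjusted p under 0.05 in edgeR's test in any of the 7 comparisons.

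A17fl/fl + NS replicate 1 had the highest level of the 6 mice compared in 14 of the 19 genes that were lower after doxorubicin in A17fl/fl, and in 13 of the 17 that were lower in A17α-MHCKO after saline. Without that library the lists held 15 genes with an unadjusted p under 0.05 for doxorubicin in A17fl/fl (12%, beside 10.2% of all genes) and 26 in A17α-MHCKO (20.8%, beside 11.5%). They held 17 for genotype after saline (13.6%, beside 10.2%) and 4 after doxorubicin (3.2%, beside 5.85%). Of these, 11, 15, 10 and 1 were among those found with it. The share for doxorubicin in A17fl/fl was thus close to that of all genes once this library was left out.

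Within heme synthesis, Alas1 separated the treatments in both genotypes. It encodes the rate-limiting enzyme and was at 110.8, 99.6 and 44.9 CPM in A17fl/fl + NS and at 195.6, 207.4 and 195.7 CPM in A17fl/fl + DOX. It was at 85.3, 131.8 and 84.3 CPM in A17α-MHCKO + NS and at 173.8, 208.2 and 163.2 CPM in A17α-MHCKO + DOX, so that all 6 DOX mice lay above all 6 NS mice. Of all genes, 1.16% separated the 6 DOX from the 6 NS mice in either direction. Within A17fl/fl 13.3% of all genes separated the treatments, and within A17α-MHCKO 16.9%.

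Alas1 was higher after doxorubicin by a log2 fold change of 1.23 in A17fl/fl (SE 0.29, unadjusted p = 0.00143, adjusted p = 0.324), 0.85 in A17α-MHCKO (SE 0.29, unadjusted p = 0.0133, adjusted p = 0.705) and 1.04 averaged over genotypes (SE 0.21, unadjusted p = 0.000347, adjusted p = 0.169). Without A17fl/fl + NS replicate 1 the average was 1.16 (unadjusted p = 9.93e-05, adjusted p = 0.0646).

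Uros, which closes the porphyrin ring, was at 18.05, 21.48 and 16.97 CPM in A17fl/fl + DOX and between 11.2 and 14.5 CPM in the 9 other mice. Its log2 fold change was 0.66 for doxorubicin in A17fl/fl (SE 0.16, unadjusted p = 0.0013, adjusted p = 0.324) and −0.60 for genotype after doxorubicin (SE 0.16, unadjusted p = 0.00254, adjusted p = 1). Uros did not overlap in either comparison, beside 13.3% and 14.1% of all genes. Of the 16 tested heme genes, 4 were higher and 3 lower after doxorubicin averaged over genotypes at an unadjusted p under 0.05 (43.8%, beside 10.7% of all genes), and 4 and 2 without A17fl/fl + NS replicate 1 (37.5%, beside 15%). In A17fl/fl 2 were higher and 2 lower (25%, beside 10.7%), and in A17α-MHCKO 2 and 1 (18.8%, beside 6.42%).

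Genes of mitochondrial iron and iron-sulfur clusters, the cofactors that are built from iron in mitochondria, were compared as a list of 24. Averaged over genotypes, the fitted value was positive in 17 of them, and 9 were higher after doxorubicin and 0 lower at an unadjusted p under 0.05 (37.5%, beside 10.7% of all genes), with a median log2 fold change of 0.18 beside −0.03 for all genes. Without A17fl/fl + NS replicate 1 these numbers were 8 and 0 (33.3%, beside 15%). Within the genotypes the counts were smaller. For doxorubicin in A17fl/fl 1 was higher and 0 lower (4.17%, beside 10.7%). In A17α-MHCKO 4 were higher and 0 lower (16.7%, beside 6.42%). Isca2, a late assembly factor, had 35.2, 29.0 and 26.5 CPM in A17α-MHCKO + DOX against 19.3, 21.6 and 18.8 CPM in A17α-MHCKO + NS. Its log2 fold change was 0.60 there (SE 0.14, unadjusted p = 0.00101, adjusted p = 0.646) and 0.38 averaged over genotypes (SE 0.10, unadjusted p = 0.00226, adjusted p = 0.301).

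Among the 10 tested genes of cystine and glutathione supply, 5 were lower and 1 higher after doxorubicin in A17fl/fl at an unadjusted p under 0.05 (60%, beside 10.7% of all genes), with a median log2 fold change of −0.67. These numbers were 4 and 0 without A17fl/fl + NS replicate 1 (40%, beside 10.2%, with a median of −0.42). For doxorubicin in A17α-MHCKO 0 were lower and 1 higher (10%, beside 6.42%), with a median of −0.08. Averaged over genotypes 3 were lower and 0 higher (30%, beside 10.7%). The genes that were lower in A17fl/fl include both synthesis and breakdown of glutathione, as in the next 2 examples. Gclc, the catalytic subunit of the enzyme that starts glutathione synthesis, was at 21.2, 20.6 and 18.5 CPM in A17fl/fl + NS and at 11.9 to 16.04 CPM in the 9 other mice. Its log2 fold change for doxorubicin in A17fl/fl was −0.50 (SE 0.14, unadjusted p = 0.00487, adjusted p = 0.358). Chac1, an enzyme that degrades glutathione, was at 6.06, 8.86 and 11.5 CPM in A17fl/fl + NS and at 2.14 to 5.33 CPM in the 9 others, with a log2 fold change of −1.52 (SE 0.38, unadjusted p = 0.00205, adjusted p = 0.334). Without A17fl/fl + NS replicate 1 these were −0.47 (unadjusted p = 0.0102) and −1.74 (unadjusted p = 0.000679). Both genes separated A17fl/fl + NS from A17α-MHCKO + NS (beside 10.9% of all genes) as well as from A17fl/fl + DOX (beside 13.3%). These are comparisons with the same saline mice.

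**Figure D4:**
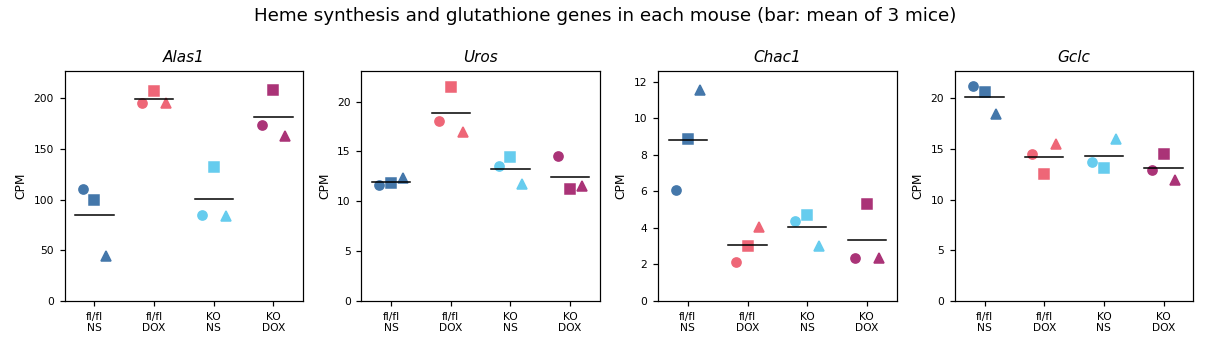
Levels in CPM (vertical axes) of 2 heme synthesis genes (Alas1 and Uros) and 2 glutathione genes (Chac1 and Gclc) in the 4 groups (horizontal axes), where each point is a mouse and the bar is the mean of 3. Alas1 is above 163 CPM in all 6 DOX mice and below 132 CPM in all 6 NS mice, Uros is highest in A17fl/fl + DOX (16.97 to 21.48 CPM), and Chac1 and Gclc are highest in A17fl/fl + NS.

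The differences between saline-treated genotypes that ranked highest in the lists besides Hmox1 were a lower Por, the electron donor of cytochrome P450 enzymes (log2 fold change −0.70, SE 0.18, unadjusted p = 0.00265, adjusted p = 0.305), a lower Nqo1, a quinone reductase (−0.95, SE 0.25, unadjusted p = 0.0032, adjusted p = 0.313), and a lower Alox5, a lipoxygenase of leukocytes (−1.02, SE 0.28, unadjusted p = 0.00347, adjusted p = 0.313). Cbs, which makes cystathionine for cysteine synthesis, was higher (1.97, SE 0.55, unadjusted p = 0.00408, adjusted p = 0.317). Its level was low, at 3 to 8 counts in A17fl/fl + NS and 19 to 31 counts in A17α-MHCKO + NS, and below the FPKM limit. Without A17fl/fl + NS replicate 1, Alox5 was at −0.68 (unadjusted p = 0.0133) and Por at −0.42 (unadjusted p = 0.00285).

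Other genes that the rule selected for doxorubicin were Elovl5, a fatty acid elongase, at −0.37 averaged over genotypes (SE 0.10, unadjusted p = 0.00259, adjusted p = 0.301), Bach1, the heme-sensing repressor of Hmox1, at −0.36 (SE 0.10, unadjusted p = 0.0037, adjusted p = 0.301), and Steap2, a metalloreductase, at −1.59 (SE 0.43, unadjusted p = 0.00333, adjusted p = 0.301). The Steap2 value was −1.03 without A17fl/fl + NS replicate 1 (unadjusted p = 0.0038, adjusted p = 0.165), and its level was below the FPKM limit. Vdac2, a channel of the outer mitochondrial membrane, was at 0.34 in A17α-MHCKO (SE 0.13, unadjusted p = 0.0213, adjusted p = 0.729). Glrx3, an iron-sulfur chaperone, was at 0.25 for genotype averaged over treatments (SE 0.09, unadjusted p = 0.015, adjusted p = 0.736).

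The remaining lists were small, and their counts at an unadjusted p under 0.05 are read beside 10.7% of all genes for doxorubicin in A17fl/fl and 10.1% for genotype after saline. Iron uptake had 3 of 10 tested genes lower and 0 higher in the former (30%) and 4 lower and 0 higher in the latter (40%). Iron storage had 0 of 7 in either direction in the 4 comparisons of 2 groups. Iron export had 1 of 5, Slc40a1, lower for doxorubicin in A17fl/fl (20%), and 1 higher and 1 lower for genotype after saline (40%). Iron sensing had 1 higher and 1 lower of 9 for doxorubicin in A17fl/fl (22.2%). Lipid peroxide repair had 1 of 16 lower there (6.25%) and 2 higher for doxorubicin in A17α-MHCKO (12.5%, beside 6.42%). Lipid substrates and peroxidation had 3 of 16 lower for doxorubicin in A17fl/fl (18.8%) and 3 lower for genotype after saline (18.8%). Ferroptosis regulators had 0 higher and 3 lower of 12 for doxorubicin in A17fl/fl (25%) and 1 higher and 1 lower for genotype after saline (16.7%). For doxorubicin in A17α-MHCKO they had 1 higher and 1 lower (16.7%, beside 6.42%). Averaged over genotypes they had 2 higher and 5 lower after doxorubicin (58.3%, beside 10.7%).

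Most of these counts moved when A17fl/fl + NS replicate 1 was left out. Iron uptake then had 0 genes in either direction in both comparisons. For doxorubicin in A17fl/fl, iron sensing, lipid peroxide repair and lipid substrates also had 0, and iron export kept 1, Slc40a1. For genotype after saline, iron export had 0 and lipid substrates 3 lower. Iron storage had 1 of 7 higher for genotype after doxorubicin. Ferroptosis regulators had 0 higher and 2 lower for doxorubicin in A17fl/fl (16.7%, beside 10.2%) and 2 higher and 3 lower in A17α-MHCKO (41.7%, beside 11.5%). They had 1 higher and 1 lower for genotype after saline (16.7%, beside 10.2%), and 1 higher and 4 lower for doxorubicin averaged over genotypes (41.7%, beside 15%).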

How the data were processed

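The authors deposited raw gene counts and FPKM of 12 libraries. Per the labels and the study's methods, reads of a stranded paired-end kit were aligned with HISAT2 to GRCm39 and counted with StringTie, and the submitters' processing notes also name SAMtools 1.3.1, CASAVA 1.8 and edgeR. FPKM equalled count over length and library total, with no TMM factor. Replicates are labelled as separate mice.

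The counts were fitted in edgeR 4.0.16 (R 4.3.3; TMM, filterByExpr, a mean per group, quasi-likelihood F-test) over 16101 genes, with Benjamini-Hochberg adjustment over all of them. SE was the absolute log2 fold change over the square root of F. CPM are TMM-scaled. The call limits are the study's. A call is made from unadjusted p-values and is not corrected for the number of genes.

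Ratios used exact permutation over mice, and correlations used 1e+05 permutations. DESeq2 1.42.0, other scalings, filters and left-out libraries served as alternatives. The fits were tried on simulated data with large changes, the same spread for every gene and no outlying library. That setting is simpler than these data.

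Members were given by name. Members, lists and tests were chosen with earlier results of these data known. Members received a fold change where unadjusted p was under 0.05 or groups did not overlap, with other values shown where a library changed them. Of the lists, up to 5 genes with the smallest p were selected in each comparison. For Hmox1, Tfrc and Slc40a1 the 3 most correlated genes were sought. A few genes that these rules selected are not reported here. Correlations between members, the summed Ftl1 rows and the lists without A17fl/fl + NS replicate 1 were added after seeing the data. Coordinates and hairpins come from GRCm38 and are not converted to the build of the counts.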

Additional observations from a re-analysis of the deposited data

Results flagged for a closer look

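In the lists, 12 of 125 genes had a doxorubicin effect that differed between the genotypes at an unadjusted p under 0.05 (9.6%, beside 5.99% of all genes), tested as an interaction in edgeR's quasi-likelihood fit. The 5 with the smallest p are given here. None passed correction, as the adjusted p was 0.828 for each. The difference (effect in A17α-MHCKO minus effect in A17fl/fl, log2) was 3.46 for Hmox1 (SE 1.04, unadjusted p = 0.0067), which was 1.70 without A17fl/fl + NS replicate 1. For Nqo1 it was 1.30 (SE 0.36, unadjusted p = 0.00382) and 1.27 without that library. For Uros it was −0.75 (SE 0.22, unadjusted p = 0.00559) and −0.72 without it. For Cbs, whose level was below the FPKM limit, it was −1.99 (SE 0.75, unadjusted p = 0.022) and −1.65 without that library (unadjusted p = 0.0488). Lcn2, a siderophore-binding protein abundant in neutrophils, gave 5.05 (SE 1.71, unadjusted p = 0.0129), but 0.97 (unadjusted p = 0.113) without that library, which held 2218 CPM of neutrophil markers.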

How the results depend on the processing

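With 3 mice per group and an adjusted p over 16101 genes, no member passed, so every call rests on unadjusted p-values. Each fold change examined was counted once per alternative. With alternatives other than leaving out a library, 283 values kept direction and side of the adjusted threshold. Another 15 passed an adjusted p of 0.05 that they had missed. The last 2 reversed, both of Ftl1 when summed with Ftl1-ps1 (genotype after doxorubicin 0.17, interaction 0.087). With a library left out, 462 kept both and 6 passed. A missing adjusted p, as for Tfrc for doxorubicin in A17fl/fl in DESeq2, was counted as kept. Hmox1 for doxorubicin in A17fl/fl had an adjusted p of 0.0129 in DESeq2 and 0.00913 in edgeR's likelihood ratio test.

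For doxorubicin in A17fl/fl, 1 member was called with upper-quartile scaling, which loses Slc40a1, 3 with no filter (adds Slc7a11), 3 with the 2 groups alone (adds Tfrc) and 0 by adjusted p, and 1 to 4 with single libraries left out. The 4, without A17fl/fl + NS replicate 2, were Acsl4, Fth1, Hmox1 and Slc40a1. For doxorubicin in A17α-MHCKO, 1 was called with no fold limit, and 0 to 1 with libraries left out (Tfrc, without A17α-MHCKO + NS replicate 2). For genotype after saline, 2 were called with no filter (adds Slc7a11), 0 by adjusted p, and 1 to 3 with libraries left out (Acsl4, Fth1 and Hmox1 without A17fl/fl + NS replicate 2 or 3). For the interaction, 0 were called by adjusted p and 1 to 2 with libraries left out. For doxorubicin averaged over genotypes, 0 were called by adjusted p and 2 with no fold limit, and for genotype averaged over treatments 0 by adjusted p. With libraries left out, both ranged from 0, without A17fl/fl + NS replicate 1, to 2, without A17α-MHCKO + NS replicate 2. Without A17fl/fl + NS replicate 1, 15 list genes had an unadjusted p under 0.05 for doxorubicin in A17fl/fl, 26 in A17α-MHCKO and 4 for genotype after doxorubicin.

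With libraries left out, the difference in the Tfrc to Fth1 ratio ranged from 1.89 to 3.09 for doxorubicin in A17fl/fl, −0.10 to 1.75 in A17α-MHCKO, −0.48 to 1.38 for genotype after saline, −1.61 to −0.75 after doxorubicin, 1.26 to 2.05 for doxorubicin averaged and −0.72 to 0.10 for genotype averaged.

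Whether replicate numbers pair the mice could not be told. Of 18 same-numbered pairs, deviations from group means correlated between −0.0832 and 0.24, 3 of them above 0.1. Of the 12 libraries, 6 correlated best with a library of their own number. With the replicate number as a block, 2 members were called for doxorubicin in A17fl/fl, Hmox1 and Tfrc (log2 fold change 1.71, unadjusted p = 0.0434), and Slc40a1 was at −0.99.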
